A study of Homo sapiens with 9 samples.

Results

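Regions of open chromatin at the ends of protein-coding genes were described in an ATAC-seq count table of a human neuroblastoma cell line. A region was taken when it lay on chromosomes 1 to 22 and its centre was at most 1000 bases from the start or the stop of a protein-coding gene of the RefSeq gene table (GRCh38). The rule used position alone and no count. It found 13670 of the 148797 regions in the table, which is 9.39% of the 145580 regions on those chromosomes, and the other 131910 served for comparison.

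Chromatin accessibility was measured with Tn5 transposase, which cuts open DNA and adds sequencing adapters to it. The cells were SK-N-BE(2)c, an established neuroblastoma line, and every library came from cells transfected by Lipofectamine 2000 with 100 nM of an antisense oligonucleotide (ASO) and collected after 48 h. NCA is the negative control oligonucleotide, and ASO2 and ASO10 target the long non-coding RNA NESPR. Each group had 3 libraries of this single line, so transfection is common to all 9, and untransfected cells were not analysed here. The labels do not say whether the 3 libraries of a group came from separate cultures, so the p-values measure only the spread between these libraries, which may be technical.

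The start of an active protein-coding gene usually lies in a stretch free of nucleosomes, where general transcription factors and RNA polymerase II assemble, and such promoters are among the most open sites in most cell types. Promoters of genes used in every cell are commonly rich in CpG dinucleotides and often hold short elements such as the GC box, bound by factors of the SP family, and the CCAAT box, bound by NF-Y. Accessibility at the far end of a gene is usually lower, and genes restricted to other tissues are often closed.

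Of the 13670 regions, 9490 had their centre within 1000 bases of the annotated start of a gene, and 1555 only of a stop. The remaining 2625 lay at genes absent from the promoter table that gives the direction of transcription, so which end they mark was not known. Ends of 2 or more genes were shared by 1936 regions, and 997 of these held the starts of divergent neighbours (head-to-head genes), so a value there belongs to both genes. Of the 19122 protein-coding genes on these chromosomes, 13619 (71.2%) had a region at an end. Among the 15100 genes of known direction, 10431 (69.1%) had one at the start and 2111 (14.0%) at the stop.

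Upstream sequences are shown for 5 genes whose start regions carry the differences described below, 3 of them on chromosome 19. They are the 250 bases before the start on the coding strand, 5′ to 3′, from RefSeq on GRCh38.p14. Capitals mark the CCAAT box (CCAAT or its complement ATTGG) and the GC box (GGGCGG or its complement CCGCCC). RPS28, a protein of the small ribosomal subunit, was lower with ASO2 and lies at chr19:8321246-8321495 on the plus strand.
RPS28: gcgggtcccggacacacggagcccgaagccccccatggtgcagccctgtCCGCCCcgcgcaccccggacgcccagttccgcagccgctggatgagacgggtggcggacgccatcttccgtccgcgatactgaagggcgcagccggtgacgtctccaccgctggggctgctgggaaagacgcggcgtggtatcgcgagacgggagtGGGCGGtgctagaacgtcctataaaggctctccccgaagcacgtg
FXR2, an RNA-binding protein of the fragile X family, was higher with ASO10 and lies at chr17:7614898-7615147 on the minus strand.
FXR2: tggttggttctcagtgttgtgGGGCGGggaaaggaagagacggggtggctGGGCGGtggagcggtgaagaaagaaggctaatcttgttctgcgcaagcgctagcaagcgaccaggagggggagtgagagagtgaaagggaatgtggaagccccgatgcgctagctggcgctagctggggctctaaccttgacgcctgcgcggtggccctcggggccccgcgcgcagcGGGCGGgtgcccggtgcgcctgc
AP2A1, a subunit of the clathrin adaptor AP-2, was higher with ASO10 and lies at chr19:49766751-49767000 on the plus strand.
AP2A1: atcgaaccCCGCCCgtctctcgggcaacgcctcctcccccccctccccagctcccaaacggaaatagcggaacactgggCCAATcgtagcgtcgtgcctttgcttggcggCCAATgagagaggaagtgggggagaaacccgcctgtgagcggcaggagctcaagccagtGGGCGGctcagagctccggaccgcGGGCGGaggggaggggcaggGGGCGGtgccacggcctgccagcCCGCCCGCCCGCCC
JUND, a transcription factor of the AP-1 family, was lower with ASO2 than with ASO10 and lies at chr19:18281623-18281872 on the minus strand.
JUND: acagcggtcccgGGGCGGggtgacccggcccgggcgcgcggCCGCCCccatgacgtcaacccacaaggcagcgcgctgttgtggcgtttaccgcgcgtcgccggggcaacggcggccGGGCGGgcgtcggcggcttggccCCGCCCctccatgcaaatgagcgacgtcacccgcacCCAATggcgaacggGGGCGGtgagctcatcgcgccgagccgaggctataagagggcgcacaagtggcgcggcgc
ZNF142, a zinc finger gene, was also lower with ASO2 than with ASO10 and lies at chr2:218659624-218659873 on the minus strand.
ZNF142: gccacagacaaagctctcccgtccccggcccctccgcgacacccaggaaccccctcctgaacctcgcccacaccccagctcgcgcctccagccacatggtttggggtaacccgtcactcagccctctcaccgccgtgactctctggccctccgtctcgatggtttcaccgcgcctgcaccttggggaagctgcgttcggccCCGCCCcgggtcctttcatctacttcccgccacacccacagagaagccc
The 250 bases of AP2A1 held 2 CCAAT boxes and 7 GC boxes, and those of JUND held 1 and 5. RPS28 had no CCAAT box and 2 GC boxes, FXR2 none and 3, and ZNF142 none and 1. A match of letters is a description and not evidence of a bound factor.

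Total counts per library ranged from 7293565 to 10948569, and the largest region of each library, outside the gene ends, took 6.98% to 9.04% of its total. Levels are given as CPM, the counts divided by a library size that was scaled by the trimmed mean of M-values (TMM), and between regions as CPM per kilobase of region width, which is not corrected for copy number. Enough counts for a test were present in 13111 of the gene-end regions (95.9%), against 78.4% of the other autosomal regions, and 559 gene-end regions were left untested. The label of the line was checked against marker genes at their ends in the NCA libraries. Of the adrenergic markers of neuroblastoma, HAND2 had 13.2 CPM per kilobase, GATA3 9.79, ISL1 24.04 and DBH 14.9, and TH had no gene-end region. Of the mesenchymal markers, FOSL1, TWIST1, SNAI2 and FN1 had 8.004 to 16.75 CPM per kilobase, and PRRX1, VIM and CD44 had no gene-end region. An open promoter does not show expression, and no marker was called by the test used below.

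Gene ends were wider and more open than the rest of the table. The median width was 1013 bases (quartiles 612 to 1372) against 341 (210 to 622) for other autosomal regions. In NCA the median level was 12.1 ± 0.21 CPM per kilobase (SD, n = 3), against 5.37 ± 0.19 elsewhere. With ASO2 these levels were 11.6 ± 0.71 and 5.39 ± 0.32, and with ASO10 they were 12.5 ± 0.25 and 5.19 ± 0.11. In each of the 9 libraries gene ends were therefore above the other regions.

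Width and level went together at gene ends. Regions under 250 bases made up 10.3% of gene ends and had 5.87 CPM per kilobase in NCA, those of 250 to 500 bases 10.4% and 6.58, and those of 500 to 1000 bases 28.4% and 11.7. The class of 1000 to 2000 bases held 46.2% of the regions, 15.2 CPM per kilobase and 66.7% of the gene-end counts. Elsewhere that class held 8.19% of regions with 8.33 CPM per kilobase. Regions of 2000 bases or more, 4.81% of gene ends, had 14.3.

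The start and the stop of a gene also differed. Start regions had a median width of 1112 bases and 13.6 ± 0.31 CPM per kilobase in NCA, 13.2 ± 0.93 with ASO2 and 14.5 ± 0.37 with ASO10, and they held 80.8% of the gene-end counts. Stop regions had a width of 354 bases and 6.54 ± 0.17, 6.06 ± 0.28 and 6.11 ± 0.11 CPM per kilobase, and held 2.81% of the counts. Starts of head-to-head genes were the most open, with 17.2 ± 0.42, 16.8 ± 1.31 and 18.8 ± 0.68 CPM per kilobase over a width of 1230 bases.

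The level at starts was lower farther from the annotated position. The 3180 regions centred within 100 bases of a start had 15.2 CPM per kilobase in NCA, the 3107 at 100 to 250 bases had 14.3, and the 1987 at 250 to 500 bases had 12.5. Between 500 and 750 bases the 754 regions had 10.6, and the 462 regions at 750 to 1000 bases had 8.68. Stop regions showed no such order, with 6.17, 7.12, 6.77, 6.49 and 6.37 in the same classes. At the limit of the rule, the 443 regions centred in the last 100 bases inside it had a width of 449 bases and 6.79 CPM per kilobase, and the 407 regions in the first 100 bases outside had 395 bases and 7.26.

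The most open gene ends per kilobase in NCA were the starts of SPATC1L (93.2 ± 4.6), SRGAP2B (91.8 ± 5.1), PDCD10 (91.0 ± 8.1), SRGAP2 (89.2 ± 6.0), METTL13 (88.8 ± 4.3) and SRGAP2C (85.4 ± 2.5). PDCD10 encodes a component of the CCM complex, and METTL13 a lysine methyltransferase. SRGAP2, SRGAP2B and SRGAP2C are near-identical duplicates, and reads could be split among them, so their separate levels are uncertain. The widest were the starts of FOXO3 (3928 bases), TAF11L7 (3791), NEMP1 (3734) and CPEB2 (3713), whose levels of 12.3 to 21.5 CPM per kilobase were much lower. FOXO3 is a forkhead transcription factor, and CPEB2 an RNA-binding regulator of translation.

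**Figure D1:**
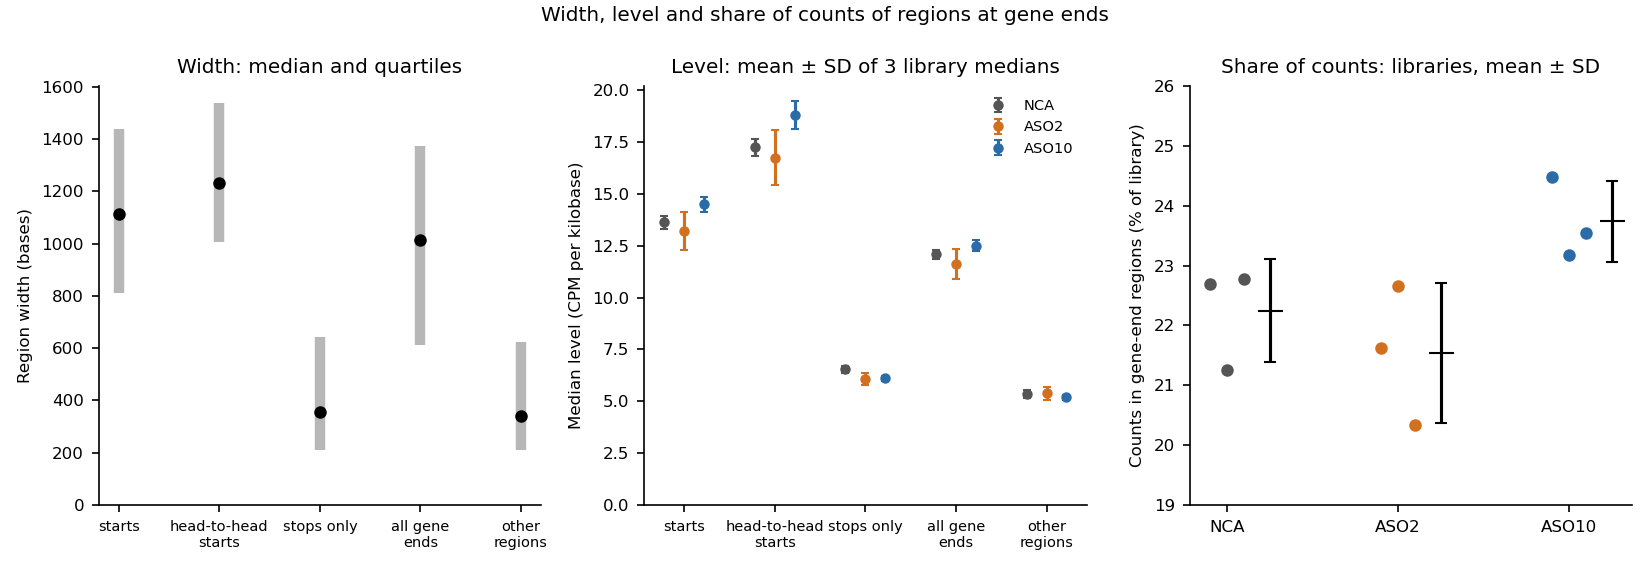
Widths of regions at starts, at stops and elsewhere, their CPM per kilobase, and the percent of each library's counts that fell in gene-end regions, for 3 libraries in each of NCA, ASO2 and ASO10. Starts were wide and open, stops resembled other regions more closely, and the 3 ASO10 libraries (23.18% to 24.48%) lay above the other 6 (20.33% to 22.78%).

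The share of a library's counts in gene-end regions needs no scaling. It was 22.7%, 21.3% and 22.8% in NCA, 21.6%, 22.7% and 20.3% with ASO2, and 24.5%, 23.2% and 23.6% with ASO10. The 3 ASO10 libraries lay above the 6 others, and ASO2 overlapped NCA. The means were 22.2% ± 0.85, 21.5% ± 1.17 and 23.7% ± 0.67 (SD, n = 3 each). The largest single region of each library took 6.98%, 7.35% and 8.35% of the ASO10 libraries and 7.66% to 9.04% of the others, and its part in these shares was not tested.

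The next comparisons asked which gene ends changed when an oligonucleotide against NESPR replaced the control. A region is said to be higher or lower when edgeR's quasi-likelihood test, fitted to all 119417 tested regions in the 9 libraries, gave a Benjamini-Hochberg adjusted p under 0.05. Fold changes on the log2 scale were computed with TMM factors and again with loess offsets, which remove in each library the average trend of the fold change with abundance over all tested regions. ASO2 and ASO10 were each compared with the same NCA libraries, so these 2 comparisons are not independent.

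With ASO2 the called gene ends were few, and whether most were higher or lower than in NCA depended on single libraries. Of the 13111 tested, 76 were higher (0.580%) and 127 lower (0.969%), where 4.79% of all tested regions were higher and 0.808% lower. With loess offsets the counts were 97 and 262, beside 4.48% and 1.27% over all regions, so higher calls were 37.4% of the calls with TMM factors and 27.0% with loess offsets. Their median log2 fold change was -0.05 with TMM and -0.08 with loess, beside -0.02 and -0.03 over all regions. The calls were 41 higher and 89 lower at starts (63 and 190 with loess), and 22 higher and 10 lower at stops (20 and 21 with loess). Without ASO2 replicate 3 the split over all gene ends turned to 97 higher and 57 lower with TMM factors, and the median was -0.01. It was 58 and 59 without NCA replicate 1, 57 and 61 without NCA replicate 3, and 30 and 115 without ASO2 replicate 2.

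Of the 4 largest increases under ASO2, 3 were at the stops of genes. At the stop of GDPD1, a lysophospholipase D-type enzyme, the levels were 1.03, 1.77 and 0.227 CPM in NCA, 6.17, 4.40 and 7.07 with ASO2 and 0.704, 2.50 and 1.30 with ASO10. The ASO2 libraries lay above all others, and the log2 fold change against NCA was 2.55 ± 0.44 (SE, edgeR adjusted p = 1.3e-06). Without NCA replicate 2 it was 3.23, and the call was kept under all 13 alternatives computed.

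At the stop of SRCAP, a chromatin remodelling ATPase that exchanges histone H2A.Z, the levels were 2.06, 2.40 and 2.38 CPM in NCA, 10.2, 7.83 and 8.26 with ASO2 and 3.52, 2.39 and 3.52 with ASO10. Again the ASO2 libraries stood above the other 6 (1.93 ± 0.31, edgeR adjusted p = 1.22e-07). At the stop of FBXL20, an F-box protein, ASO2 (4.49, 5.58 and 5.69 CPM) was above NCA (1.68, 1.51 and 2.04), with a log2 fold change of 1.58 (edgeR adjusted p = 0.001855). A weak region near the start of RNF145, a ubiquitin ligase, rose by 1.81 (edgeR adjusted p = 0.003852), and this call was lost without NCA replicate 2 or without ASO2 replicate 2, with an adjusted p of up to 0.0848.

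The stop of LOC124909486 was higher with both oligonucleotides. Its levels were 6.83, 8.57 and 7.38 CPM in NCA, 18.2, 21.5 and 15.5 with ASO2 and 14.7, 16.6 and 12.6 with ASO10. All 6 libraries of the NESPR oligonucleotides were above the 3 of NCA, by 1.27 for ASO2 (edgeR adjusted p = 1.1e-09) and 0.95 for ASO10 (edgeR adjusted p = 0.000285).

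Among the gene ends that fell with ASO2, the start region of RPS28, which it shares with NDUFA7 of respiratory complex I, was the clearest at a well-filled region. The region at chr19:8320757-8322167 had 22.4, 20.8 and 21.0 CPM in NCA, 11.4, 15.8 and 12.8 with ASO2 and 22.8, 19 and 20.8 with ASO10. Every ASO2 library was below the other 6, the log2 fold change was -0.68 ± 0.16 (edgeR adjusted p = 0.000707), and the call was kept under the 13 alternatives. A region at ADRB3, the beta-3 adrenergic receptor, fell by 1.59 with ASO2 (edgeR adjusted p = 0.000252). Its levels were 6.06, 4.79 and 8.40 CPM in NCA, 1.26, 3.11 and 1.93 with ASO2 and 3.40, 3.19 and 2.47 with ASO10. The ASO10 libraries were also below the 3 of NCA, a difference that was not called (-1.08, edgeR adjusted p = 0.0736).

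Weak regions at LGI2, YIF1B and LOC124904792 were also lower with ASO2, with log2 fold changes of -1.47, -1.45 and -1.37 at 3.67 to 4.09 CPM in NCA. ASO10 against NCA had -1.26, -0.73 and -0.31 there, and none of these was called. The ASO2 calls did not hold under 8, 4 and 4 of 13 alternatives, with adjusted p of up to 0.275. Among those alternatives were limma-voom and the removal of ASO2 replicate 2. Without single libraries the ASO2 calls at gene ends numbered 112 (without ASO2 replicate 1), 117 (without NCA replicate 1) and 118 (without NCA replicate 3) in place of 203.

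With ASO10 the called gene ends were nearly all higher than in NCA with TMM factors, and this split depended on the scaling. Of the tested gene ends, 273 were higher (2.08%) and 15 lower (0.114%), where 0.876% of all tested regions were higher and 0.21% lower. With loess offsets 83 were higher and 68 lower, beside 0.571% and 0.392% over all regions, so the share of higher calls went from 94.79% to 54.97%. The median was 0.09 with TMM and 0.02 with loess, against -0.01 and 0.00 over all regions. At starts 227 regions were higher and 5 lower with TMM (69 and 46 with loess), and at stops 7 were higher and 4 lower (5 and 6 with loess).

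All 83 regions higher with loess offsets were among the 273 higher with TMM. The count of 288 calls also rested on single libraries: it was 56 without ASO10 replicate 3, 60 without ASO10 replicate 1, 151 without ASO10 replicate 2, 74 without NCA replicate 1, 82 without NCA replicate 2 and 128 without NCA replicate 3.

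The start region shared by FXR2 and SHBG, at chr17:7614168-7615504, was among the clearest increases with ASO10. Its levels were 15.5, 14.0 and 13.1 CPM in NCA, 16.8, 18.1 and 16.0 with ASO2 and 29.4, 23.9 and 24.7 with ASO10. The ASO10 libraries were above the other 6 (0.88 ± 0.15, edgeR adjusted p = 2.92e-05, and 0.79 with loess offsets). SHBG encodes the sex hormone-binding globulin.

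The start region of AP2A1, at chr19:49766252-49767229, had 47.2, 45.6 and 44.3 CPM in NCA, 45.1, 54.8 and 51.8 with ASO2 and 71.8, 64.5 and 77.5 with ASO10. It too had no overlap between ASO10 and the other groups (0.64 ± 0.11, edgeR adjusted p = 3.66e-05, and 0.48 with loess). Both calls were kept under all 13 alternatives.

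The stop of ACTN1, an alpha-actinin that crosslinks actin filaments, was higher with ASO10 (8.80, 9.67 and 8.46 CPM) and with ASO2 (10.7, 10.2 and 12.4) than in NCA (5.67, 4.04 and 3.97). The log2 fold changes were 0.98 (edgeR adjusted p = 0.007856) and 1.29 (edgeR adjusted p = 3.55e-06). The former call was lost with limma-voom and without NCA replicate 2, NCA replicate 3 or ASO10 replicate 2 (adjusted p up to 0.0780). AEBP1, an extracellular matrix protein, and the stop shared by XPC, a DNA damage sensor, and TMEM43 rose by 1.27 and 0.96, but their calls did not hold under 8 of 12 and 6 of 13 alternatives.

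Of the gene ends lower with ASO10, the region at the ends of GLIPR1L2 and CAPS2 had the smallest adjusted p. It had 44.6, 34.6 and 36.9 CPM in NCA, 28.5, 31.3 and 28.7 with ASO2 and 28.6, 21.9 and 25.9 with ASO10, a log2 fold change of -0.60 (edgeR adjusted p = 0.00163) that was lost without NCA replicate 1 or ASO10 replicate 2 (adjusted p up to 0.111). All 3 ASO10 libraries and all 3 ASO2 libraries were below the 3 of NCA. ASO2 was also called lower there (-0.39, edgeR adjusted p = 0.0424).

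The stop shared by PLEKHH3 and TUBG2, a gamma-tubulin gene, had 13.8, 7.31 and 13.7 CPM in NCA and 6.10, 4.78 and 6.64 with ASO10 (-0.997, edgeR adjusted p = 0.002481). That call was lost without NCA replicate 1, NCA replicate 3 or ASO10 replicate 2. REG1B, CCDC74A and EPB41L4B were lower by -1.66, -0.97 and -0.92, calls that did not hold under 4 of 12, 5 of 13 and 6 of 13 alternatives.

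**Figure D2:**
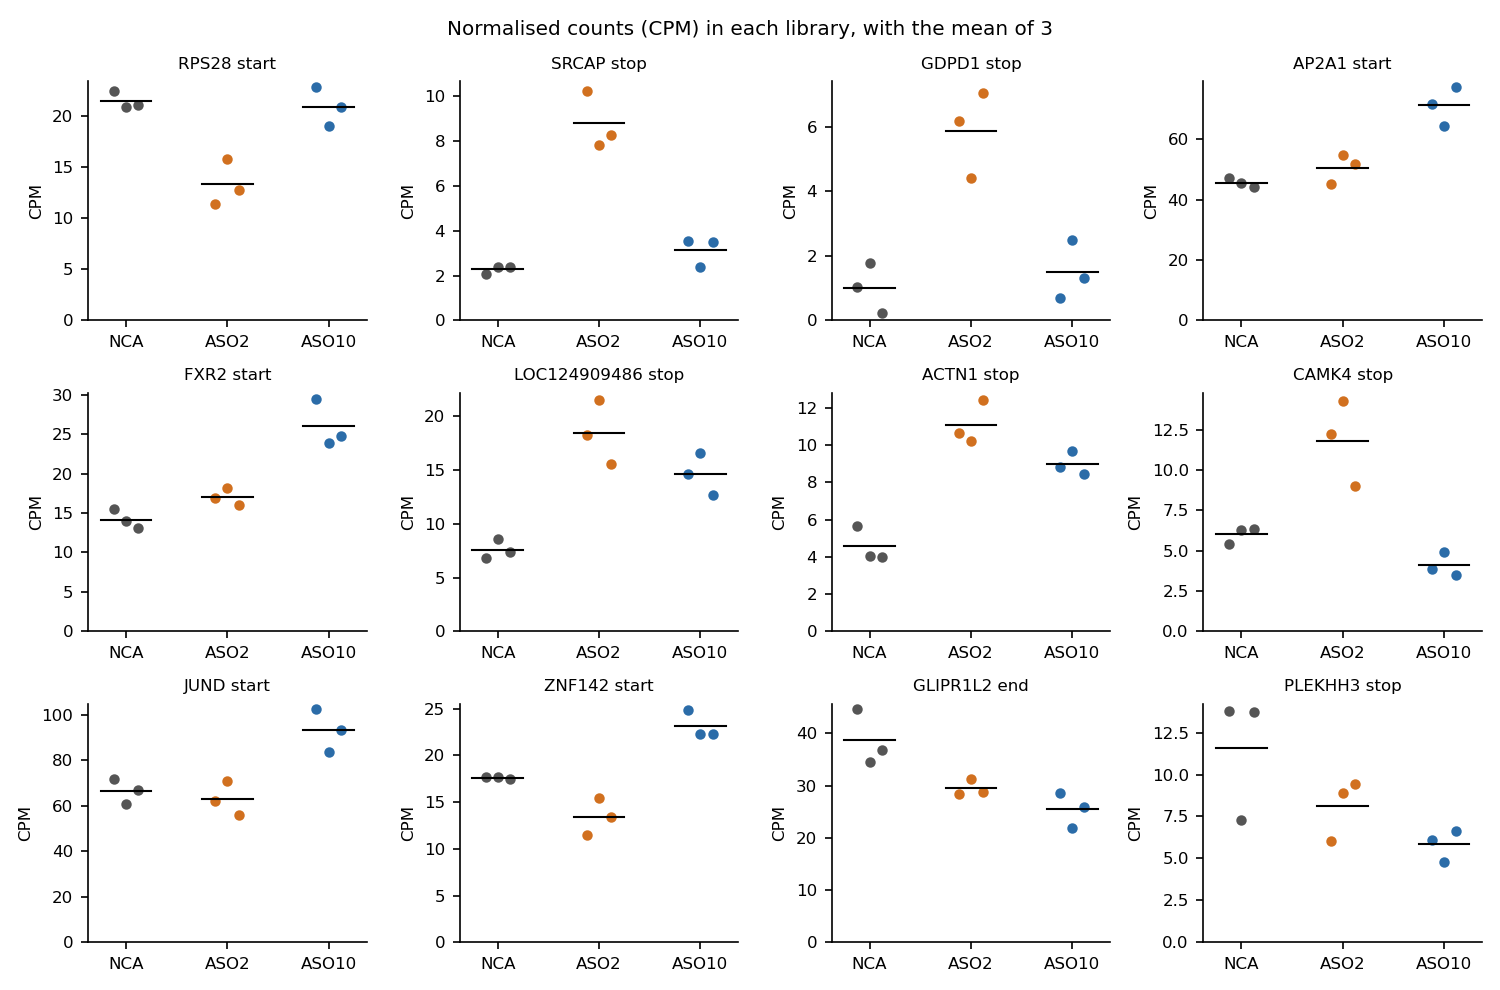
CPM in each of the 9 libraries for 12 gene-end regions named in the text, with points for libraries and bars for group means. RPS28 is low in the 3 ASO2 libraries (11.4 to 15.8 CPM), and FXR2, AP2A1 and JUND are high in the 3 ASO10 libraries.

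A few gene ends besides ACTN1, LOC124909486 and GLIPR1L2 were called with each oligonucleotide against the shared NCA libraries. Of these others, 6 are given side by side, chosen after their values were seen. At TAF6L, of a histone acetyltransferase complex, the log2 fold changes were 0.70 with ASO2 and 0.74 with ASO10. They were 0.50 and 0.57 at ZNF556, and 0.50 and 0.75 at DMWD. At KAT5, a histone acetyltransferase, they were 0.42 and 0.52, and the ASO10 call was lost with loess offsets (edgeR adjusted p = 0.0535). Lower values were found at TCF7, a transcription factor of the Wnt pathway (-0.51 with ASO2 and -0.63 with ASO10), and at CYP7B1, an oxysterol hydroxylase (-0.57 and -0.60).

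The direct comparison of ASO2 with ASO10 asks at which gene ends the pair directed against NESPR differed from each other, without NCA as the reference. Gene ends were mostly lower with ASO2: 48 were higher (0.366%) and 388 lower (2.96%), where 2.54% of all tested regions were higher and 0.682% lower. With loess offsets the counts were 93 and 207, beside 2.24% and 0.529% over all regions, so higher calls went from 11.01% to 31.00% of the calls. The median was -0.15 with TMM and -0.10 with loess, against 0.00 and -0.02 over all regions. Starts gave 25 higher and 324 lower (67 and 161 with loess), while stops gave 17 higher and 5 lower (16 and 9). Head-to-head starts gave 2 higher and 46 lower, with a median of -0.18.

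Of the 388 lower regions, 183 (47.2%) were also lower with loess offsets. The 436 calls fell to 132 without ASO10 replicate 1, 134 without ASO10 replicate 3, 146 without ASO2 replicate 3, 165 without ASO2 replicate 1 and 222 without ASO10 replicate 2. Depth was highest in ASO2 replicate 3, which also had the smallest share of counts at gene ends.

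JUND had the smallest adjusted p among the lower regions named by the rule. The region at chr19:18279624-18282424, 2801 bases wide, had 71.8, 60.9 and 66.7 CPM in NCA, 62.3, 70.8 and 56.1 with ASO2 and 102.6, 83.6 and 93.1 with ASO10. The ASO10 libraries lay above the other 6. The log2 fold change of ASO2 against ASO10 was -0.56 ± 0.11 (edgeR adjusted p = 3.71e-05), and -0.35 with loess offsets (edgeR adjusted p = 0.00796). ASO10 against NCA was 0.49 (edgeR adjusted p = 0.002047), a call that was lost with loess offsets (adjusted p = 0.0522).

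The start region shared by ZNF142 and BCS1L, a chaperone of respiratory complex III, lies at chr2:218658694-218660072. It had 17.7, 17.7 and 17.5 CPM in NCA, 11.51, 15.45 and 13.40 with ASO2 and 24.9, 22.3 and 22.3 with ASO10. The 3 groups did not overlap, and the 2 oligonucleotides differed by -0.78 ± 0.15 (edgeR adjusted p = 0.000138, and -0.73 with loess). Against NCA neither was called, with 0.40 for ASO10 and -0.38 for ASO2.

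On the higher side, the stop shared by CAMK4, a calcium/calmodulin-dependent kinase, and STARD4, a cholesterol transfer protein, had 12.2, 14.3 and 8.99 CPM with ASO2, 3.87, 4.89 and 3.52 with ASO10 and 5.41, 6.30 and 6.35 in NCA. ASO2 was above both other groups in every library (1.52 against ASO10, edgeR adjusted p = 2.81e-07). The stop of PELO, a ribosome rescue factor, was higher with ASO2 (3.79, 5.80 and 4.68 CPM) than with ASO10 (1.64, 0.683 and 1.56), by 1.88 (edgeR adjusted p = 0.001354).

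GDPD1 and SRCAP differed by 1.95 and 1.48 in this comparison, and GDPD1 by 2.55 without ASO10 replicate 2. RFXAP, a regulator of MHC class II genes, and RNF145 were higher by 2.07 and 1.55, calls lost under 3 and 6 of 13 alternatives. R3HDM4, NCR2, FES (a tyrosine kinase) and NIPAL2 were lower by -1.63, -1.38, -1.25 and -1.16, all at under 6 CPM in each group mean, and these calls were lost under 5, 9, 3 and 5 of 13 alternatives. Leaving out ASO10 replicate 2 was among the losing alternatives for each of those 6 regions.

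The medians moved with abundance, and how far depended on the scaling. With TMM factors the ASO10 median of gene ends went from -0.05 among the 1134 regions under a mean of 1 log2 CPM to 0.07 at 3 to 4, 0.17 at 5 to 6 and 0.23 in the 210 regions over 6. Other regions went from -0.06 to 0.12 at 5 to 6 and 0.01 over 6. Loess offsets flatten such a trend by construction, and the gene-end medians for ASO10 then stayed between -0.01 and 0.06.

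For ASO2 the loess medians of gene ends were -0.16, -0.18 and -0.13 at 1 to 2, 2 to 3 and 3 to 4 log2 CPM, and 0.06 over 6. Those of other regions lay between -0.04 and 0.01 over all 7 bins. The direct comparison gave loess medians of -0.17, -0.18 and -0.16 for gene ends at 1 to 4 log2 CPM and 0.01 over 6. Gene ends of low and middle abundance therefore sat below other regions of like abundance for ASO2, also after the offsets.

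By library with loess offsets, the median of gene ends relative to the NCA mean was -0.06, -0.05 and -0.10 for ASO2 and 0.03, 0.02 and 0.03 for ASO10, with NCA at 0.01, 0.00 and 0.00. Each ASO2 library was below the 3 of NCA and each ASO10 library above them. The NCA values are small in part because those libraries enter the mean they are compared with.

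**Figure D3:**
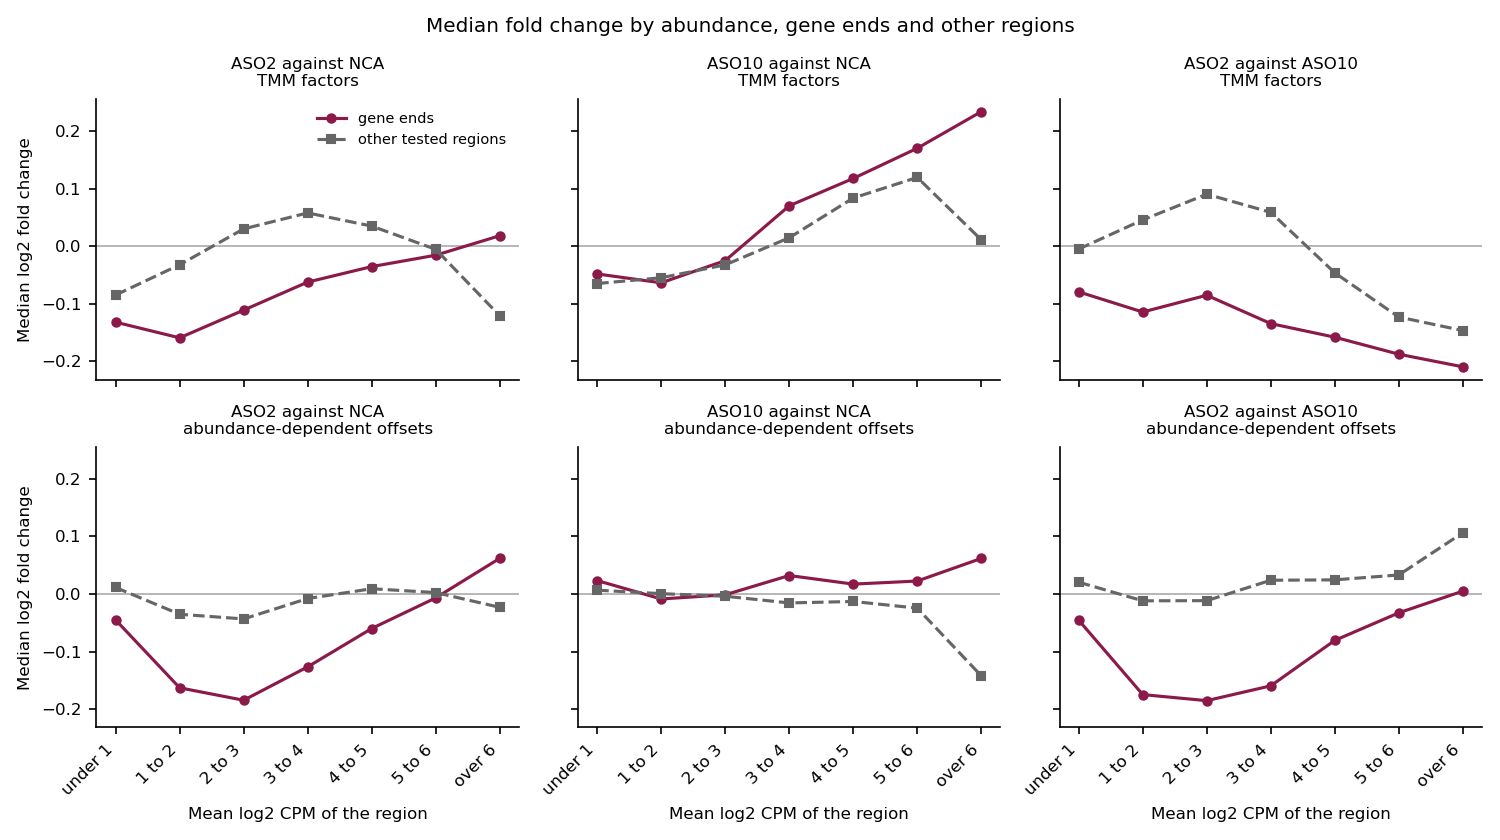
Median log2 fold change of gene-end regions and of other tested regions in 7 bins of mean log2 CPM, for the 3 comparisons with TMM factors and with loess offsets. The ASO10 line of gene ends rises from -0.05 to 0.23 with TMM and is nearly flat with loess, while for ASO2 gene ends at 1 to 4 log2 CPM lie below the other regions with both.

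Gene classes differed first in how many of their genes had a region. Housekeeping lists (ribosome, proteasome, spliceosome, translation factors, respiratory chain and RNA polymerase II with its general factors) had one for 289 of 296 autosomal genes (97.6%). Neuronal lists had one for 176 of 228 (77.2%), stress and signalling responses for 117 of 135 (86.7%), the neuroblastoma identity lists for 55 of 72 (76.4%) and genes of other cell types for 40 of 118 (33.9%). Olfactory receptor genes, which are silent outside the nose in most tissues, had a region for 57 of 391 (14.6%) with a median width of 283 bases. Zinc finger genes named ZNF had one for 435 of 505 (86.1%).

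The levels followed a similar order. In NCA the median was 15.3 ± 0.87 CPM per kilobase for the response class, 14.9 ± 0.27 for housekeeping genes, 14.7 ± 0.17 for ZNF genes and 12.6 ± 0.73 for identity genes. It was 9.77 ± 0.25 for neuronal genes, 7.95 ± 1.56 for other cell types and 5.05 ± 0.49 for olfactory receptors (SD, n = 3). The first 3 do not differ beyond their spread. Housekeeping and neuronal ends had like widths, 1013 and 1068 bases, so the gap between them is one of level.

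Lists within a class spread widely. The unfolded protein response and the integrated stress response had the highest medians, 17.5 and 17.2 CPM per kilobase, followed by the spliceosome with 16.9, p53 targets with 16.0, translation factors with 15.5, the respiratory chain with 15.4, the proteasome with 15.3, ribosomal proteins with 14.3 and RNA polymerase II with 13.2. Neuronal lists ran from 7.72 for neurotransmitter receptors through 9.13 for synaptic vesicle release, 9.38 for adhesion and axon guidance and 9.83 for ion channels to 12.7 for cytoskeletal and RNA-binding genes. Adrenergic genes had 13.3, mesenchymal genes 12.04 and interferon response genes 8.15. The lists of other cell types had 5.09 (keratinocyte), 6.42 (immune), 10.9 (hepatocyte) and 13.6 (striated muscle), with ends open for 11 of 29, 13 of 30, 9 of 29 and 7 of 30 genes.

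Single genes departed from their lists. SEL1L, an adaptor of endoplasmic reticulum-associated degradation, had 78.3 CPM per kilobase, ATP5F1B of the ATP synthase 54.8, RRM2B, a p53-regulated ribonucleotide reductase subunit, 56.3, and STAT2 of interferon signalling 46.4. Among neuronal genes SCN3B, a sodium channel subunit, had 40.7, MAP1A 37.6 and RAB3A, a synaptic vesicle GTPase, 32.5, whereas SYT7 had 3.52. Among ribosomal protein ends RPL32 had the lowest level, 5.09. Within lists that were otherwise mostly closed, OR2L13 had 71.0 and MYL11, a muscle myosin light chain, 61.7.

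Across the groups, the median level of housekeeping ends was highest with ASO10, and the level with ASO2 overlapped that of NCA. Their levels were 14.9, 14.7 and 15.2 CPM per kilobase in NCA, 14.1, 15.5 and 13.1 with ASO2 and 16.4, 15.4 and 16.1 with ASO10. ASO10 lay above NCA in every library, while the ASO2 libraries fell on both sides of it. Neuronal ends had 9.74, 9.53 and 10.0 in NCA, 10.2, 10.8 and 9.39 with ASO2 and 10.3, 9.90 and 10.4 with ASO10, and these groups overlapped.

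With TMM factors the median log2 fold changes of the 333 tested housekeeping ends were -0.08 for ASO2, 0.13 for ASO10 and -0.19 between ASO2 and ASO10. For the 199 neuronal ends they were 0.00, 0.06 and -0.09. With loess offsets the values were -0.10, 0.05 and -0.15 for housekeeping and -0.02, 0.02 and -0.05 for neuronal ends. All gene ends together had -0.05, 0.09 and -0.15 with TMM, so with TMM housekeeping ends lay beyond the overall median and neuronal ends nearer to 0. With loess offsets all gene ends had -0.08, 0.02 and -0.10, so the ASO10 median of neuronal ends was then like that of all gene ends. Leaving out single libraries moved the ASO2 median of neuronal ends across 0, from -0.05 to 0.03. Response genes had -0.04, 0.17 and -0.20 with TMM, identity genes 0.02, 0.04 and -0.09, and other cell types -0.13, -0.07 and -0.06. With loess offsets these were -0.06, 0.07 and -0.12 for response genes, -0.01, -0.01 and -0.05 for identity genes, and -0.16, -0.04 and -0.02 for other cell types.

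Called regions per class were few, and several splits changed with the scaling. Housekeeping ends gave 1 higher and 5 lower with ASO2, 7 and 0 with ASO10, and 1 and 13 between ASO2 and ASO10 with TMM factors. With loess offsets they gave 1 and 6, 3 and 2, and 1 and 10. Neuronal ends gave 1 and 1, 2 and 0, and 1 and 4 with TMM, and 1 and 1, 0 and 0, and 1 and 3 with loess. Response genes gave 0 and 0, 3 and 0, and 0 and 6 with TMM, and 0 and 1, 2 and 0, and 0 and 0 with loess. Identity genes gave 0 and 2, 2 and 0, and 1 and 1, and 0 and 3, 1 and 1, and 1 and 1 with loess. Other cell types gave 0 and 0, 1 and 0, and 0 and 1 with TMM and no call with loess, and olfactory receptors gave no call with TMM and 0 and 0, 0 and 1, and 1 and 0 with loess. ZNF genes gave 2 and 1, 4 and 0, and 1 and 7 with TMM, and 3 and 4, 1 and 2, and 4 and 4 with loess. Of the 119417 tested regions, edgeR called 5.6%, 1.09% and 3.23% in these 3 comparisons with TMM factors, and 5.75%, 0.963% and 2.77% with loess offsets, in either direction. Of all tested gene ends with TMM factors, 0.580% were higher and 0.969% lower with ASO2, and 2.08% and 0.114% with ASO10. Between ASO2 and ASO10 these shares were 0.366% and 2.96%.

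With ASO10, 7 of the 333 tested housekeeping regions were higher by TMM, a share close to that of all gene ends (2.08%). Over all tested regions it was 0.876%. Of these 7, 5 were among the 43 tested regions of RNA polymerase II and its general factors: POLR2A, POLR2E, POLR2I, TAF6 and TAF12. POLR2E, a subunit shared by the nuclear polymerases, had a mean of 8.27 ± 1.52 CPM in NCA, 9.61 ± 2.57 with ASO2 and 14.5 ± 1.87 with ASO10 (SD, n = 3), a log2 fold change of 0.81 (edgeR adjusted p = 0.00804). TAF12, a subunit of TFIID, had 17.1 ± 2.23, 19.2 ± 1.4 and 27.5 ± 1.67 CPM (0.68, edgeR adjusted p = 0.001568). These 2 were also called with loess offsets, and POLR2A, POLR2I and TAF6 were not. The other 2 were SNRPB and SNRPD3 of the spliceosome, with 0.53 and 0.55, of which SNRPD3 was also called with loess offsets.

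With ASO2 the 5 lower housekeeping regions were at RPS28, at UQCRH of respiratory complex III (-0.47, edgeR adjusted p = 0.01408), at NDUFC2 of complex I (-0.63), at TAF2 of TFIID (-0.74) and at the stop of the splicing factor U2AF2 (-0.53). RPS24 was the 1 higher, from 10.2 ± 0.80 CPM in NCA to 15.9 ± 2.93 (0.63, edgeR adjusted p = 0.01054). Between ASO2 and ASO10 the housekeeping regions lower with ASO2 included EIF4A1, an RNA helicase of translation initiation (-0.63, edgeR adjusted p = 0.000515), ETF1, a translation release factor (-0.53), and PSMB3 of the proteasome (-0.52). VARS1, the valyl-tRNA synthetase, was the 1 higher, with 9.43 ± 1.51 CPM in NCA, 12.8 ± 2.33 with ASO2 and 6.21 ± 0.61 with ASO10 (1.02, edgeR adjusted p = 0.00021).

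Among neuronal genes SEMA3A, a repulsive axon guidance cue, was higher with ASO2 at 13.2 ± 2.39 CPM against 7.07 ± 1.23 in NCA and 8.05 ± 1.96 with ASO10 (0.91 against NCA, edgeR adjusted p = 0.000602). TUBB2A, a neuronal beta-tubulin, was lower (-0.55, edgeR adjusted p = 0.02144). RAB3A and ELAVL3, a neuronal RNA-binding protein, were higher with ASO10 with TMM factors (0.41 and 0.48) and were not called with loess offsets. PRPH, MAPT and NEFM, which encode cytoskeletal proteins, and the vesicle protein SYT11 were lower with ASO2 than with ASO10 by -0.42, -0.52, -0.42 and -0.39, of which MAPT alone was also called with loess offsets.

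The integrated stress response list had the largest ASO10 shift of the housekeeping, neuronal, identity and response lists. Its median was 0.20 with TMM and 0.12 with loess, with 84.8% of its 46 regions above 0 by TMM and 67.4% by loess, and 1 region called. Of all gene ends, 63.0% were above 0 by TMM and 53.2% by loess. The spliceosome list was close to it, with medians of 0.18 and 0.10, 84.1% and 65.9% of its 44 tested regions above 0, and 2 called by TMM. The called region of the stress response list was the start of DDIT4, an inhibitor of mTORC1 signalling. It had 38.8 ± 6.7 CPM in NCA, 41.4 ± 2.1 with ASO2 and 56.1 ± 1.6 with ASO10 (0.53, edgeR adjusted p = 0.002752). Between ASO2 and ASO10 the starts of DDIT3, DDIT4, SARS1, TRIB3 and CEBPB were lower with ASO2 by TMM (-0.45 to -0.40), and none of the 5 was called with loess offsets. DDIT3 and CEBPB are stress-induced transcription factors of the C/EBP family. The regions of this list had a median width of 1331 bases.

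In the identity lists YAP1, the Hippo pathway coactivator, and its target CCN2 were lower with ASO2 by -0.85 (edgeR adjusted p = 0.002954) and -0.73 (edgeR adjusted p = 0.02626). Both belong to the mesenchymal list, which as a whole did not fall with ASO2. Its 31 tested regions had a median of 0.06 with TMM and 0.03 with loess. Of these regions 67.7% were above 0 by TMM and 54.8% by loess. TBX2 and the stop of JUNB were higher with ASO10 by 0.48 and 0.66, of which JUNB was also called with loess offsets. VIP, a neuropeptide gene, was higher with ASO2 than with ASO10 by 0.84 with TMM factors and was not called with loess.

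**Figure D4:**
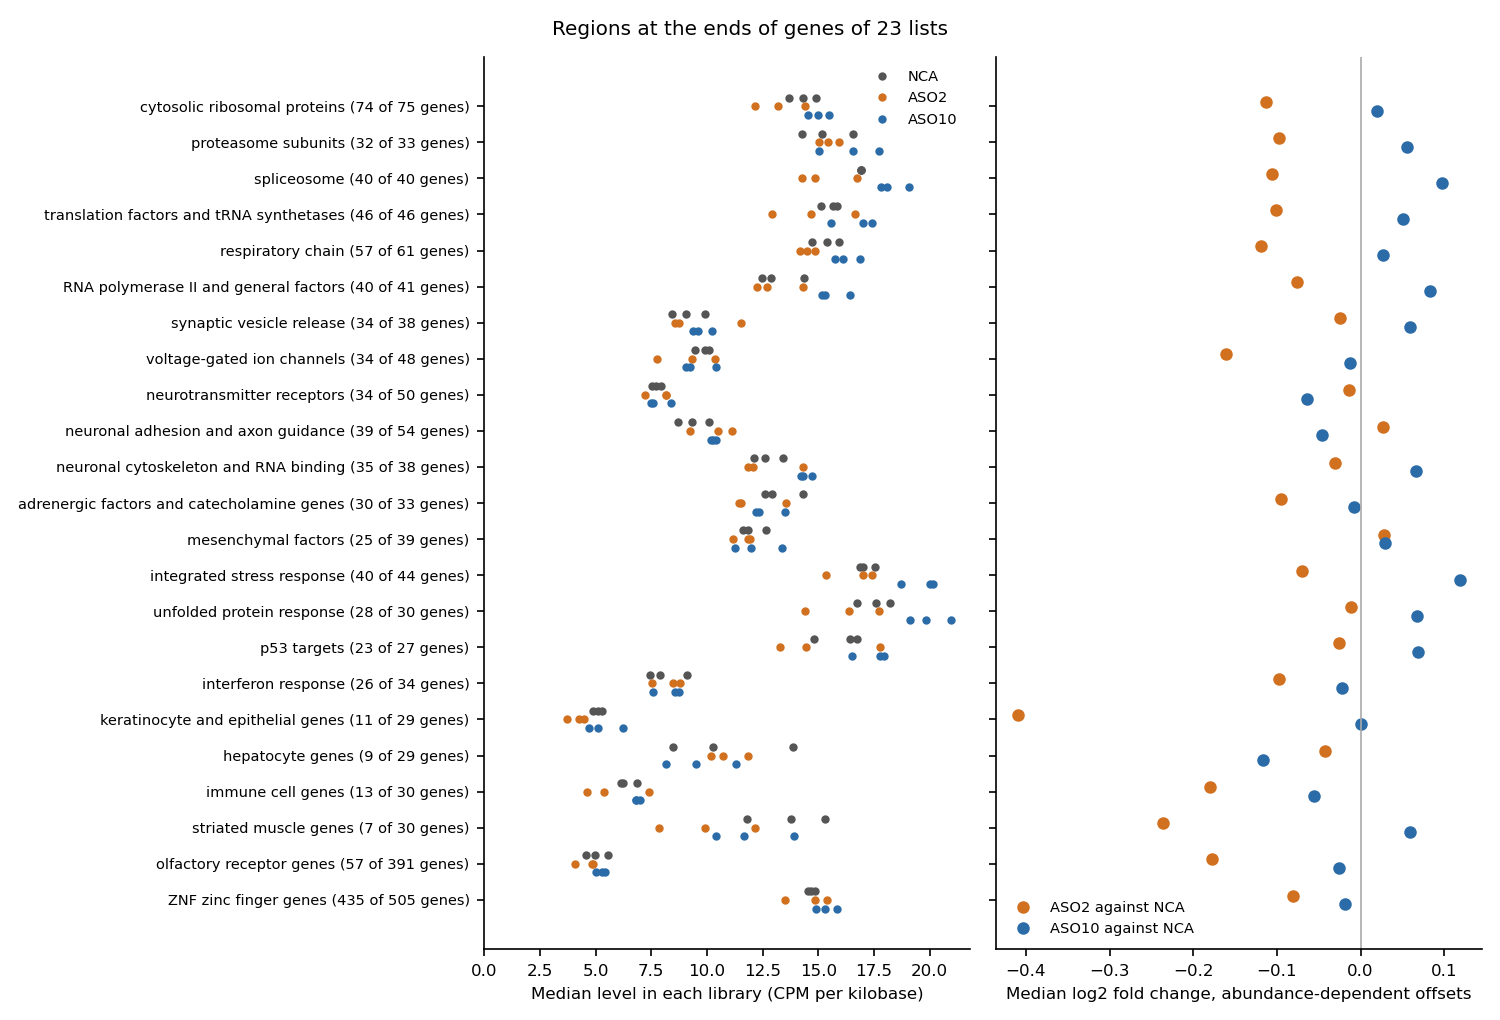
Median CPM per kilobase in each of the 9 libraries for the gene-end regions of 23 gene lists, with the lists in order of class. Median log2 fold changes with loess offsets are shown for ASO2 and for ASO10 against NCA. In NCA the means are 13.2 to 17.5 CPM per kilobase for stress, housekeeping and ZNF lists, 7.72 to 12.7 for neuronal lists and 5.05 for olfactory receptors. The ASO10 loess medians of the housekeeping lists run from 0.02 to 0.10.

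Promoter sequence was compared with these values for start regions. A sequence of 300 bases, 250 before and 50 after the start, was matched by gene to 9136 of the 9490 start regions, and 8990 of those were tested. On either strand 10 motifs were searched: the CCAAT box, the GC box (GGGCGG), the ETS core (CCGGAAG), the CRE core (TGACGT), the E-box (CACGTG), the TATA box (TATAAA), the AP-1 site (TGANTCA), the GATA site (AGATAA), the NRF1 core (GCATGCG) and alternating GC (GCGCGC), some of which can overlap. They were chosen after results of these data had been seen. CCAAT occurred in 34.4% of all 21155 autosomal promoter entries and in 36.4% of tested start regions, and the GC box in 56.6% and 74.0%.

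Classes differed in promoter sequence. The median GC content was 61.3% for housekeeping and 69.5% for neuronal starts, against 66.7% for all tested starts. The ETS core was found in 34.0% of housekeeping, 4.24% of neuronal and 28.9% of head-to-head starts, against 18.99% of all tested starts. CCAAT was found in 54.7% of response gene starts.

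Starts with a CCAAT box were more open, with 16.7 CPM per kilobase (3269 regions) against 12.6 without (5721 regions). Their median log2 fold change was 0.00 against -0.07 without for ASO2, and 0.15 against 0.08 for ASO10, with TMM factors. With loess offsets it was -0.02 against -0.10 for ASO2, and 0.06 against 0.01 for ASO10. Without ASO2 replicate 3 the ASO2 medians were 0.05 with the box and -0.02 without it by TMM. Between ASO2 and ASO10 directly, the values with and without the box were -0.16 and -0.16 by TMM, and -0.08 and -0.11 by loess.

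The difference with minus without the box was 0.07, 0.08 and 0.09 in the 3 ASO2 libraries and 0.04, 0.05 and 0.05 in the 3 ASO10 libraries by loess, and 0.00 in each NCA library. All 6 libraries of the NESPR oligonucleotides lay above the 3 of NCA, which enter the mean used as the reference. At 3 to 4 log2 CPM the ASO2 loess medians were -0.08 with and -0.14 without the box, at 4 to 5 they were -0.02 and -0.08, and over 5 they were 0.03 and -0.03. At the lowest GC content, under 55%, they were -0.03 and -0.08, and over 75% they were -0.08 and -0.12. The gap thus kept its sign in these bins of abundance and of GC content.

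Among called starts, CCAAT was found in 64.1% of the 220 higher with ASO10 by TMM and 59.7% of the 67 by loess. All tested starts had it in 36.4%, those at 3 to 5 log2 CPM in 35.1% and those over 5 in 51.7%. The starts higher with ASO10 lay on both sides of 5 log2 CPM. CCAAT was found in 26.7% of the 86 lower with ASO2 by TMM and 25.0% of the 184 by loess. Of the starts lower with ASO2 than with ASO10, 46.3% of 313 had it by TMM and 35.1% of 154 by loess.

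GC content went with the direct comparison. The median of ASO2 against ASO10 was -0.09 by TMM in the 1067 starts under 55% GC and -0.21 in the 1485 over 75%, and -0.05 and -0.17 by loess. Over 75% GC the loess medians of the libraries were -0.06, -0.05 and -0.19 for ASO2 and 0.07, 0.04 and 0.05 for ASO10, so ASO2 replicate 3 stood lowest. Without that library, the medians of the direct comparison were -0.06 under 55% and -0.12 over 75% by TMM. GC content can also affect amplification and sequencing, and its part in the results was not tested.

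**Figure D5:**
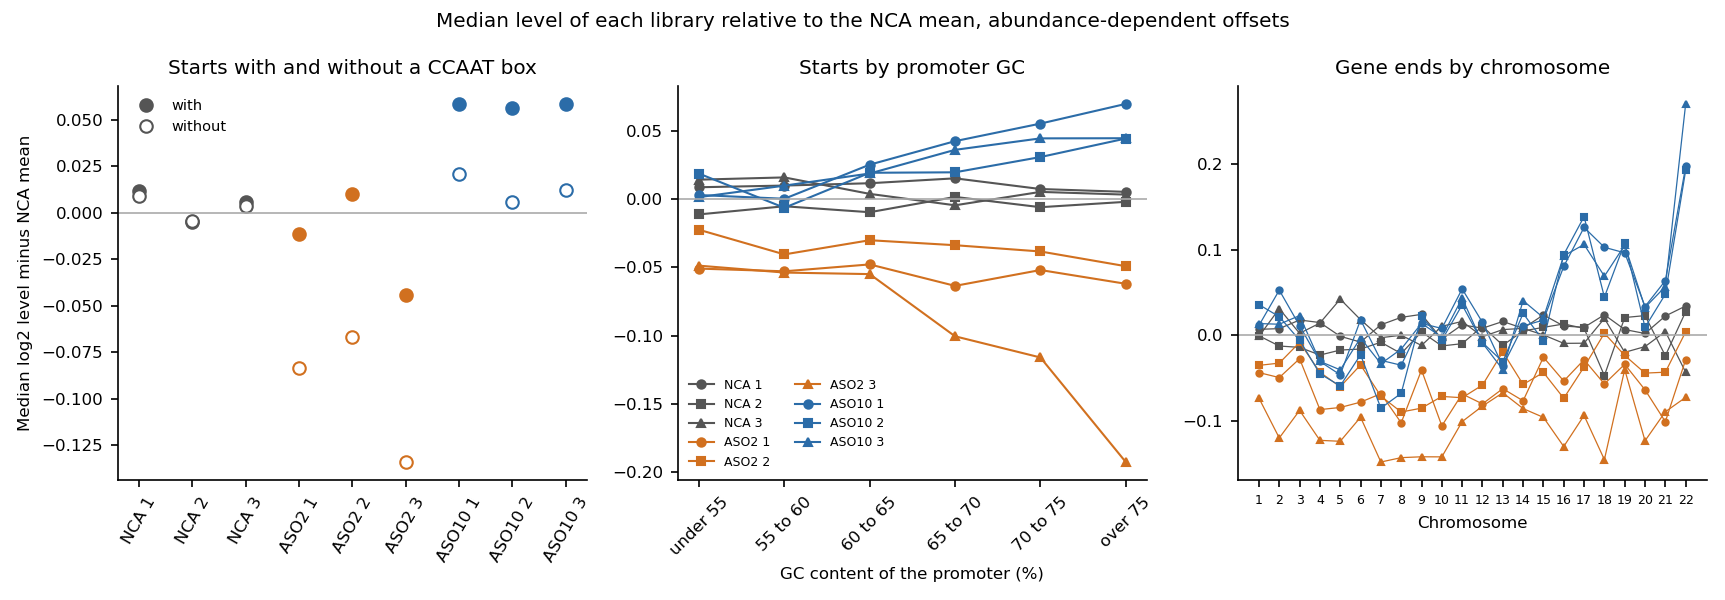
Median log2 level of start regions relative to the NCA mean, by library with loess offsets, for promoters with and without a CCAAT box and for bins of promoter GC content, and of all gene ends by chromosome. With a CCAAT box the medians are higher in the 6 ASO2 and ASO10 libraries (by 0.04 to 0.09) and nearly equal in NCA, and ASO2 replicate 3 falls to -0.19 over 75% GC.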

How the data were processed

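The authors deposited whole-number counts for 148797 regions in 9 libraries, without normalization, and the total per library is the depth. The submitters' processing notes name FastQC, Bowtie2 2.2.6, SAMtools, MACS2 2.1.2, DESeq2 1.42.0 and the build hg38/GRCh38, with no role or order. What was counted (single reads, pairs or cut sites) and any shift for Tn5 are not given in the sources used here. Per the labels' protocols the assay used Tn5 on genomic DNA, although a label names the molecule as RNA. The coordinates in the region names were treated as 1-based, a convention that the sources used here do not state.

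Gene ends came from the RefSeq gene table of GRCh38. Direction and promoter sequence came from the RefSeq promoter table (GRCh38.p14), matched by gene. Regions were named by the gene with the nearest end. edgeR 4.0.16 (R 4.3.3) was run on all regions left by filterByExpr (119417), with TMM factors, a robust quasi-likelihood fit, all 9 libraries, a term per group and Benjamini-Hochberg adjustment over all tested regions (threshold 0.05). The biological coefficient of variation was 23.5%. Loess offsets on abundance used a span of 0.3. Log2 levels used a prior count of 0.5.

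Alternatives were DESeq2 1.42.0, limma-voom (limma 3.58.1), RLE factors, total counts, a loess span of 0.7, an unfiltered table, a minimum of 10 counts in all libraries, a term for replicate number, a fit to the 2 groups at issue, windows of 500 and 2000 bases, and leaving out each library. The GC and CCAAT medians without 1 library were added after seeing the data.

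Named regions were called with both scalings in the same direction, did not overlap between groups and had a mean of at least 1 log2 CPM. In each comparison they were the 4 highest and 4 lowest by fold change and the 2 with the smallest adjusted p each way. For levels they were the 6 most open and 4 widest regions, the extremes of each list and the called regions of lists. The members, the 23 gene lists (2 of them by symbol), the motifs and the rules were chosen with earlier results of these data known, so they are no independent evidence. List medians carry no test.

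On simulated counts for ASO2 against NCA the method was tested over 119417 regions. It recovered 21.5% of 200 regions changed by 1 on the log2 scale and 94.7% of the 38 over 3 log2 CPM, with 1 false call among 44. Recovery was thus lower at weak regions. The simulated counts were drawn independently with the spread estimated from the data. They held no trend with abundance or GC content between libraries and no library that stood apart. The simulation therefore cannot show how many of the calls in the data are false. Summaries used Python 3.11.15 with pandas 2.3.3, and plots used matplotlib 3.10.9. Results for some genes are not reported here.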

Additional observations from a re-analysis of the deposited data

Results flagged for a closer look

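Every ASO2 library had a median level of gene ends below the NCA mean, and every ASO10 library above it, with loess offsets. The ASO2 mean minus the ASO10 mean was -0.095 on the log2 scale, and this difference itself was not tested. By region, edgeR's test of ASO2 against ASO10 called 436 gene ends as different between the 2 oligonucleotides, which share their target and their control. That is 3.33% of the tested gene ends, near the 3.23% called over all tested regions. With loess offsets 300 gene ends (2.29%) were called, below the 2.77% over all tested regions.

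That test separated ASO2 from ASO10 at every region in this paragraph, given as the log2 fold change of ASO2 against ASO10. Regions higher with ASO2 were at RFXAP (2.07), GDPD1 (1.95), PELO (1.88), RNF145 (1.55), CAMK4 (1.52, 2.81e-07 as edgeR adjusted p) and SRCAP (1.48). Regions lower with ASO2 were at R3HDM4 (-1.63), NCR2 (-1.38), FES (-1.25), NIPAL2 (-1.16), ZNF142 (-0.78) and JUND (-0.56). GDPD1, SRCAP, RNF145 and CAMK4 were also called in ASO2 against NCA, and JUND in ASO10 against NCA, with TMM factors. No cause of these differences was tested.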

How the results depend on the processing

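No called value of a named region changed sign. Of 679 pairs of a result with an alternative, 544 were labelled as unchanged. For named regions this meant the same side of the threshold in the same direction, and for medians and shares a move of less than the spread. For counts of calls the label allowed large moves, such as 203 to 140 for ASO2 without NCA replicate 2. It was also given to 288 and 425 calls for ASO10 with only the 2 groups compared. The label did not follow the split of higher and lower calls, which turned for ASO2 without ASO2 replicate 3. The 203 calls of ASO2 against NCA became 129 with DESeq2, 132 with limma-voom, 359 and 350 with loess offsets (spans 0.3 and 0.7) and 365 with at least 10 counts in every library. The 288 calls of ASO10 became 151 and 152 with loess offsets and 474 with at least 10 counts. The 436 between ASO2 and ASO10 became 777 with at least 10 counts and 718 with only the 2 groups compared. Leaving out each library gave 112 to 180, 56 to 373 and 132 to 528 calls. With fewer regions tested or fewer libraries such counts change by construction, and for the other alternatives the cause was not tested. ASO10 medians were 0.020 for gene ends with both loess spans, 0.047 for housekeeping, 0.020 for neuronal, 0.025 for start and -0.022 for stop regions with loess. The stop median of ASO2 against ASO10 was -0.064 with loess and -0.0098 in a window of 500 bases. Windows of 500 and 2000 bases gave 19.27% and 25.19% of counts in NCA, 18.68% and 24.42% with ASO2 and 20.62% and 26.68% with ASO10. Over the autosomal total the shares were 23.42% in NCA and 25.03% with ASO10. These windows gave 13.21 and 10.76, 12.76 and 10.29, and 13.93 and 10.90 CPM per kilobase in NCA, ASO2 and ASO10, and total counts gave 12.11 in ASO10. The ASO2 median of neuronal ends, 0.003, was -0.017 with loess, -0.016 with total counts, -0.0033 in a window of 500 bases, and -0.051 to 0.034 when leaving out each library. That of starts with a CCAAT box went from -0.0026 to 0.048 without ASO2 replicate 3. Of 427 alternatives for named regions, 87 lost the call.

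Same-numbered libraries did not deviate together over the tested regions (correlations from -0.036 to 0.013). Such values cannot exclude a pairing, and the labels do not say what the numbers share. With a replicate block ASO10 against NCA had 171 calls in place of 288, ASO2 against NCA 178 and ASO2 against ASO10 314.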

Other observations

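Gene ends of a few chromosomes stood apart with ASO10, a pattern noticed in the data and given as values. On chromosome 22, with 304 tested gene ends and a median promoter GC content of 70.3%, the loess median against NCA was 0.21. The libraries had 0.20, 0.19 and 0.27 with ASO10, -0.03, 0.00 and -0.07 with ASO2 and 0.03, 0.03 and -0.04 in NCA. There 16 gene ends were higher and 0 lower with TMM factors, and 13 and 0 with loess offsets. Over all tested regions 0.876% were higher and 0.21% lower with TMM, and 0.571% and 0.392% with loess. Other regions of chromosome 22 had a loess median of 0.05. The 775 tested gene ends of chromosome 17 had 0.11 (32 higher and 1 lower by TMM, 12 and 1 by loess), the 1011 of chromosome 19 had 0.09 (58 and 1, 23 and 1), and the 594 of chromosome 16 had 0.08 (22 and 1, 3 and 1). Chromosome 21, whose promoter GC content was 71%, had 0.06, and so did chromosome 18. Chromosomes 5, 7 and 8 had -0.05, and chromosomes 4 and 13 had -0.04. Copy number was not measured here, and the part of GC content and of the chromosome in these medians was not tested.

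GATA letters (AGATAA) went the other way from the CCAAT box in the ASO10 libraries. The 400 tested starts that held them had a median lower than the rest by -0.05, -0.04 and -0.05 in the 3 ASO10 libraries, and by loess differed by 0.01 in each ASO2 library. In the NCA libraries the differences were 0.02, -0.01 and 0.01. The GC box went with higher ASO10 medians, by 0.05, 0.04 and 0.05, and with 0.03, 0.03 and 0.00 in the ASO2 libraries. The 474 starts with a TATA box differed by 0.03, 0.07 and 0.02 with ASO10 and by 0.04, 0.01 and 0.08 with ASO2. In NCA the TATA box values were 0.01, -0.01 and 0.01.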
